A study of Mus musculus with 12 samples.

Results

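The Dlx, Irx, Lhx, Meis, Msx, Nkx, Pitx, Six2 to Six6 and Tbx genes encode DNA-binding regulators that assign position and cell fate in the embryo. The 54 listed genes of these 9 families are all homeobox or T-box genes outside the Hox clusters. They were taken by name from 21631 protein-coding genes on chromosomes 1 to 19 and X, with no cut on a measured value. The list was chosen with earlier results of these data known. The 54 genes comprise 6 Dlx, 6 Irx, 8 Lhx, 3 Meis, 3 Msx, 10 Nkx, 2 Pitx and 11 Tbx genes and the 5 genes Six2 to Six6. Each gene was scored by its peaks of H3K4me3 and H3K4me1 over the gene plus 1 kb on either side.

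The cells were mouse embryonic fibroblasts (MEFs), connective tissue cells grown from embryos, with a knockout of Fbxw7 (KO) or wild type (WT). Fbxw7 encodes the substrate-binding subunit of a ubiquitin ligase, and the labels give neither the deleted part of the gene nor the way the knockout was made. Chromatin was profiled by Cut & Run, in which an antibody directs a nuclease to its target and the released fragments are sequenced, with antibodies to MLL4, H3K4me1 or H3K4me3. Each antibody had 2 libraries per genotype (12 libraries in 6 groups), and the question was whether the distribution of each target differs with loss of Fbxw7.

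Homeobox and T-box proteins bind short DNA motifs, often with partners such as the Meis and Pbx proteins, and switch on programmes for limb, heart, jaw, brain, gut or kidney. Cultured fibroblasts are known to keep part of the positional code of the tissue they came from. H3K4me3 is found at promoters in use or held ready for use. H3K4me1 is laid down largely by MLL4 (the product of Kmt2d) and its relative MLL3 and is found at enhancers and beside promoters.

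The H3K4me3 libraries held 5519477 and 5938102 filtered fragments in KO and 11319701 and 6185767 in WT, with 10397 and 11281 peaks in KO and 17460 and 16078 in WT. The H3K4me1 libraries held 13627038 and 12611409 fragments in KO and 12607690 and 11604131 in WT, with 59908 and 53120 peaks in KO and 62065 and 56616 in WT. The MLL4 lists held 49 and 40 peaks in KO and 60 and 69 in WT, and none of these lay over any of the 54 genes or within 5 kb of one. Whether paired libraries of 1 group were grown as separate cultures is not in the labels, so the p-values measure the spread between these libraries, which may be technical. With 2 libraries against 2, the exact two-sided permutation test cannot give a p below 0.333, so no difference between genotypes given here can pass 0.05. Absence of a peak means only that the caller passed nothing there, and the mark on fewer cells cannot be told apart from less of the mark per cell. Of the fibroblast markers, 16 of 16 carried H3K4me3 in at least 1 library, and 9 in all 4. The same held in at least 1 library for 3 of 8 neural, 1 of 5 endothelial, 2 of 5 haematopoietic, 1 of 5 epithelial and 1 of 5 pluripotency markers.

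Promoter sequence is shown first for 4 regulators that stand for the main patterns of H3K4me3 described below. The sequences are the 250 bases before the first listed start site on the gene's own strand, 5′ to 3′, from RefSeq (GRCm38.p6), with each CG dinucleotide in capitals. Irx3 (chr8:91801655-91801904, minus strand, 13 CG) and Meis3 (chr7:16175145-16175394, plus strand, 12 CG) lay wholly under H3K4me3 in all 4 libraries. Nkx3-2 (chr5:41764221-41764470, minus strand, 21 CG) lay wholly under H3K4me3 in both WT libraries and had none in either KO library. Six6 (chr12:72939632-72939881, plus strand, 17 CG) had no H3K4me3 in any library.
Irx3: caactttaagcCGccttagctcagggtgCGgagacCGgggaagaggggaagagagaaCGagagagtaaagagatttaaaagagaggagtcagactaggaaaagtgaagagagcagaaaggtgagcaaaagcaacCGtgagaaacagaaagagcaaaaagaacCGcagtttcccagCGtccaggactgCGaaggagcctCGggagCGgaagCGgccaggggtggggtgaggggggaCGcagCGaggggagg
Meis3: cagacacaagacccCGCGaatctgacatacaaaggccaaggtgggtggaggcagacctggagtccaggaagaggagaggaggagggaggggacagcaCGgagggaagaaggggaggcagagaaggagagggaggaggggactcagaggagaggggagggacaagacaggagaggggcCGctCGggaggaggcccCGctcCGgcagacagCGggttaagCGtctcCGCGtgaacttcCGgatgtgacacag
Nkx3-2: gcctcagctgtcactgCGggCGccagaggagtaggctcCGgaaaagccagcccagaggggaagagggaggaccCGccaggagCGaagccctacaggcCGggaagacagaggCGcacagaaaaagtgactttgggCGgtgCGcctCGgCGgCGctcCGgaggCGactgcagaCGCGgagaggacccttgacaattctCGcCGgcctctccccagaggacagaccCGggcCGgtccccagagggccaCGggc
Six6: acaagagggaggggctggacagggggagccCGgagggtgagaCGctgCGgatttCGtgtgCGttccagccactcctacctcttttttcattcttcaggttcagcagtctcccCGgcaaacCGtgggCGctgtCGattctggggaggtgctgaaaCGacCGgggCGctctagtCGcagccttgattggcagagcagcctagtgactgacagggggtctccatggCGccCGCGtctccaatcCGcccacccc

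H3K4me3 peaks lay over 10 and 15 of the 54 regulators in the KO libraries, against 32 and 29 in the WT libraries. These counts averaged 12.5 ± 3.54 in KO and 30.5 ± 2.12 in WT (SD, n = 2 each), and the genotypes did not overlap (exact permutation p = 0.333, the smallest possible). The shares were 18.5% and 27.8% in KO and 59.3% and 53.7% in WT. Over all protein-coding genes they were 45.1% and 47.7% in KO and 61.1% and 58.7% in WT. Whether the regulators differ from all genes in this was not tested. The bases under H3K4me3 over the 54 genes came to 7.08 and 9.13 kb in KO and 58.6 and 38.7 kb in WT, a log2 KO/WT ratio of -2.59 (exact permutation p = 0.333), beside -1.48 over all genes. Peaks numbered 13 and 19 in KO and 62 and 49 in WT.

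**Figure D1:**
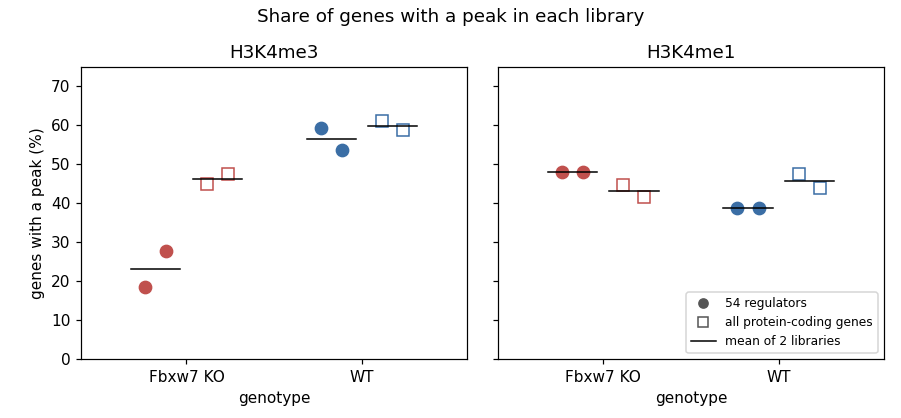
Share of genes (%) with a peak over the gene plus 1 kb in each library, for H3K4me3 (left panel) and H3K4me1 (right panel). Filled circles are the 54 regulators, open squares all protein-coding genes and lines the means of 2 libraries. For H3K4me3 the regulators sit at 18.5% and 27.8% in KO and at 59.3% and 53.7% in WT. For H3K4me1 they sit at 48.1% in both KO libraries and at 38.9% in both WT libraries.

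By pattern, 10 regulators had H3K4me3 in all 4 libraries, 15 in both WT libraries and neither KO library (WT-only), none in both KO libraries alone, 7 in another mix, and 22 in none. WT-only genes made up 27.8% of the regulators, against a background of 7.73% over all protein-coding genes. Genes with the mark in all 4 libraries made up 18.5% of the regulators and 41.8% of all genes. KO-only genes were 0% of both. By bases, 29 regulators (53.7%) had both KO values below both WT values, against 57.4% of all genes, so by that measure the share was near the background, and none had both above (background 0.0185%). By peak number 20 regulators (37.0%) had both KO values below, against 13.3% of all genes, and none had both above (background 1.41%). When each list was cut to its 10397 best peaks, the length of the shortest, no regulator was WT-only or KO-only (background 1.85% and 0.67%). Peaks then lay over 10 and 13 regulators in KO and over 11 and 13 in WT. They covered 7084 and 7865 bases in KO and 18208 and 15197 bases in WT (log2 KO/WT -1.16, exact permutation p = 0.333). Over all protein-coding genes the same cut left 6957860 and 7721437 bases in KO and 18185919 and 15326842 bases in WT, so KO lay below WT there as well.

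The regulators marked in WT had peaks of low rank. A gene's best peak was ranked by its −log10 q within its library's list, from percentile 0 (weakest) to 100. The median best peak of the regulators was at percentile 36.9 and 57.0 in KO and 34.0 and 33.6 in WT, against 57.5 and 58.4 in KO and 66.0 and 64.2 in WT for all genes with a peak. Of the genes with H3K4me3 in both WT libraries, 15 of 29 regulators (51.7%) were WT-only, against 13.2% of all such genes. Below percentile 25 in WT replicate 2, 9 of 10 regulators (90%) and 69.5% of all genes were WT-only. From percentile 25 to 50 the counts were 6 of 12 regulators (50%), beside 22.3% of all genes. Above percentile 50, none of the 7 regulators was WT-only, near the 3.74% of all genes from percentile 50 to 75 and the 0.749% above 75.

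**Figure D2:**
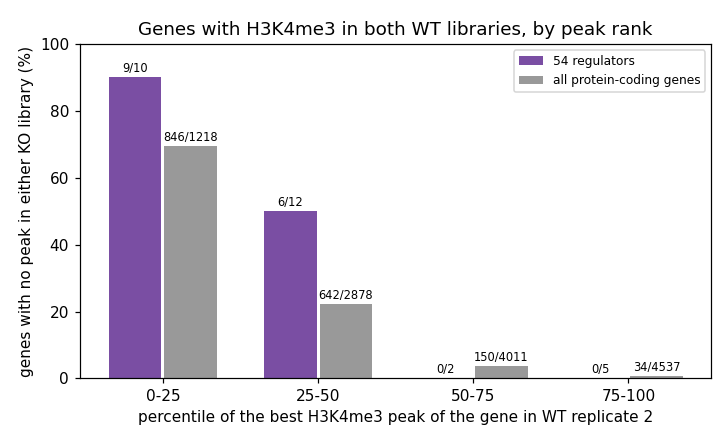
Percentage of genes with no H3K4me3 peak in either KO library, among genes with one in both WT libraries, by the percentile of the gene's best peak in WT replicate 2 (x axis). Purple bars are the 54 regulators and grey bars all protein-coding genes, with the counts above each bar. The regulators fall mostly in the lower 2 bins, with 9 of 10 and 6 of 12 lacking a KO peak.

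The 10 regulators marked in all 4 libraries were Dlx2, Irx3, Lhx9, Meis3, Six4, Six5, Tbx1, Tbx10, Tbx15 and Tbx18, and each had fewer bases under H3K4me3 in each KO library than in each WT library. Their median log2 KO/WT ratio of bases was -1.79, against -1.12 over the 9041 genes of this kind. Between the libraries of similar depth, KO replicate 2 and WT replicate 2, it was -1.49, against -0.93. Tbx15, which patterns the skeleton and dermis of the limbs and trunk, had on average the most H3K4me3 of the 54 genes, with 868 and 771 bases in KO and 4486 and 3404 bases in WT (means 819.5 ± 68.6 in KO and 3945 ± 765 in WT, SD over 2 libraries, for a log2 ratio KO/WT of -2.27). The WT libraries carried 3 separate peaks along Tbx15 and the KO libraries 2 and 1. The peak at one end of the gene, chr3:99240238-99241934 in WT replicate 1, was 1697 bases long there and 1520 in WT replicate 2. At the same place the KO peaks were 471 and 771 bases long.

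Tbx18, needed for the epicardium, ureter and sinus node, had 1636 and 1024 bases under H3K4me3 in KO and 2543 and 2180 bases in WT. Meis3, a Hox cofactor gene, had a single peak of 966 and 1045 bases in KO and 1535 and 1536 bases in WT, and its peak ranked high in every list, at percentiles 80.2 and 96.4 in KO and 90.6 and 93.5 in WT. Irx3, an Iroquois gene of neural tube, heart and limb patterning, had 888 and 1084 bases in KO and 1836 and 1335 bases in WT. Meis3 and Irx3 showed the smallest differences of the 10, at log2 KO/WT -0.61 and -0.69, although at the gene ends alone Meis3 had 381 bases in KO and 330 in WT. By rank, their WT peaks were among the strongest of the 54 genes (Irx3 at percentiles 89.4 and 93.8 in WT).

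Lhx9, a LIM-homeobox gene of the gonad and limb bud, had 265 and 776 bases under H3K4me3 in KO and 3284 and 2291 bases in WT. Its strongest peak lay within the gene, at chr1:138841172-138842020 in WT replicate 1 (percentile 83.9) and at chr1:138841271-138841805 in KO replicate 2 (percentile 89.8). KO replicate 1 had no peak there, and its only Lhx9 peak, at chr1:138848332-138848596, ranked at percentile 0.43. At that end of the gene KO replicate 2 had a peak of 241 bases and the WT libraries had peaks of 948 and 767 bases, so this was the site called in all 4 libraries. Six4, active in muscle progenitors, had 633 and 625 bases in KO and 2985 and 2038 bases in WT, with its neighbour Mnat1 reaching into the scored window. Six5, the homeobox gene beside Dmpk, had 866 and 742 bases in KO and 2256 and 1978 bases in WT, with Dmpk and Bhmg1 in its window.

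Tbx1, a pharyngeal arch gene, had 487 and 730 bases in KO and 2188 and 1689 bases in WT. Dlx2, a gene of forebrain interneurons and branchial arches, had 335 and 431 bases in KO and 1534 and 1350 bases in WT. The Dlx2 peak of KO replicate 2 was near the bottom of its list, at percentile 1.5. For Tbx10 every H3K4me3 peak lay past the gene's end in the flank, so its 140 and 111 bases in KO and 587 and 549 bases in WT are the edge of a peak outside the gene. Where only 1 kb either side of listed start sites was scored, which could be done for 39 of the 54 regulators, 5 (12.8%) were marked in all 4 libraries, against 38.6% of the 17274 genes with a listed start, and 10 (25.6%) were WT-only, against 7.82%, with Six4, Tbx1 and Meis2 then among the WT-only genes.

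The 15 WT-only genes were Dlx1, Dlx4, Irx2, Irx5, Irx6, Lhx4, Lhx5, Lhx6, Meis1, Msx3, Nkx2-2, Nkx3-2, Nkx6-3, Pitx3 and Tbx5, with 0 bases in both KO libraries by definition. The values that follow are those of WT replicates 1 and 2. Irx2 had 4167 and 1795 bases, in 6 and 3 separate peaks along a window of 11.8 kb. Tbx5, the forelimb and heart T-box gene, had 3701 and 1618 bases in 3 peaks in each. Meis1, a cofactor of Hox and Pbx proteins, had 3159 and 1784 bases. These 3 genes had the most H3K4me3 of the 15, and yet their best peaks ranked at percentiles 13.7 to 29.3 in WT replicate 2.

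Lhx6, a gene of cortical interneurons and the jaw, had 2056 and 1754 bases under H3K4me3 in WT. Nkx3-2, a gene of cartilage and the axial skeleton, had 1205 and 726 bases there, in a single peak over its start site that covered the printed sequence. The start of the noncoding gene Gm46910 also lies in the Nkx3-2 window. Nkx2-2, of ventral spinal cord and pancreas, had 968 and 786 bases in WT. These peaks lay within the gene, 7483 and 7664 bases from its listed start site, and starts of noncoding genes also lie in its window. Nkx6-3 had 626 and 292 bases. All of the Nkx genes with any H3K4me3 were WT-only, 3 of 10, and the other 7 had none in any library.

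Dlx1, the neighbour of Dlx2 and its partner in interneurons, had 1014 and 892 bases in WT. Dlx4 had 1219 and 758 bases. Irx5 and Irx6, which lie in 1 cluster with Irx3 on chromosome 8, had 1400 and 746 bases and 1207 and 667 bases, while only Irx3 of that cluster was marked in KO. On chromosome 13 a second cluster holds Irx1, Irx2 and Irx4. Irx1 had 0 and 387 bases in KO and 2569 and 1506 bases in WT, and Irx4, a gene of the cardiac ventricle, had no peak in any library.

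Msx3, a gene of the dorsal neural tube, had 711 and 593 bases in WT. Lhx4, of the pituitary and motor neurons, had 1240 and 590 bases. Lhx5, of the forebrain, had 557 and 547 bases in WT and ranked at percentile 3.3 in WT replicate 2. Pitx3, of midbrain dopamine neurons and lens, had 1559 and 703 bases, but the peak shared by both WT libraries lay at the end of the gene next to Elovl3, and a peak at the Pitx3 start site was called in WT replicate 1 alone.

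**Figure D3:**
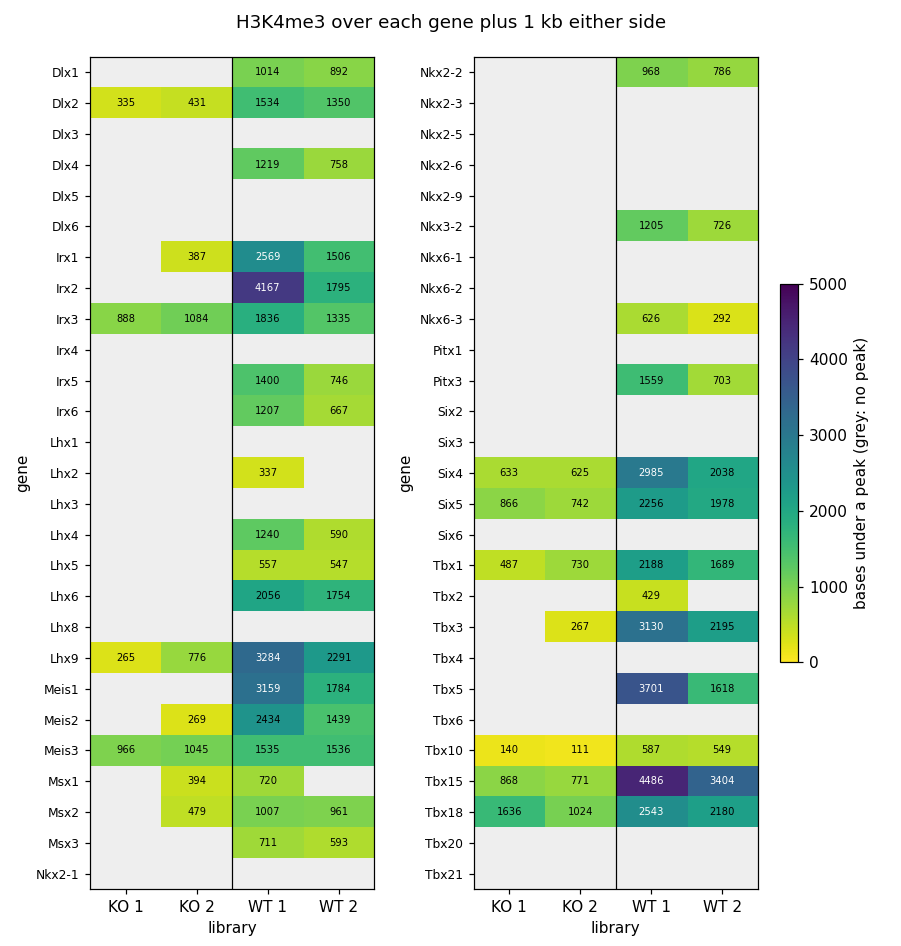
Bases under an H3K4me3 peak over each of the 54 regulators plus 1 kb either side, by library (KO 1 and KO 2 left of the line, WT 1 and WT 2 right of it). Colour and number give the bases, and grey marks no peak. The WT columns are filled for 32 and 29 genes and the KO columns for 10 and 15, with no gene filled in KO alone.

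In the remaining 7 marked genes the libraries of a genotype disagreed. Tbx3, a T-box repressor of limb and heart, had 0 and 267 bases in KO and 3130 and 2195 bases in WT, and at equal list length its KO replicate 2 peak was the only one left. Meis2 had 0 and 269 bases in KO and 2434 and 1439 bases in WT. Msx2, a BMP-responsive gene of skull and limb, had 0 and 479 bases in KO and 1007 and 961 bases in WT. Its partner Msx1 had 0 and 394 bases in KO and 720 and 0 bases in WT, so for Msx1 the genotypes overlapped. Irx1 was given above, and Lhx2 and Tbx2 had a peak in WT replicate 1 alone, the deepest of the 4 H3K4me3 libraries.

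No H3K4me3 was called over the other 22 genes. They include the hindlimb genes Pitx1 and Tbx4, the heart genes Nkx2-5 and Tbx20, the nephron progenitor gene Six2, the eye and forebrain genes Six3 and Six6, the lung and thyroid gene Nkx2-1, the pancreatic gene Nkx6-1, the presomitic mesoderm gene Tbx6 and the T cell gene Tbx21. Of the paired limb genes, the forelimb gene Tbx5 was thus marked in both WT libraries, and the hindlimb genes Tbx4 and Pitx1 in none. The Tbx5 peaks lay within the gene, more than 1 kb from either end, and Tbx5 had no listed start site. The start of the noncoding gene Gm5563 also lay in its window, and at equal list length Tbx5 had no peak in any library. Dlx3, Dlx5, Dlx6, Irx4, Lhx1, Lhx3, Lhx8, Nkx2-3, Nkx2-6, Nkx2-9 and Nkx6-2 were the others of the 22 genes without the mark.

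CpG content at the start sites was then set beside these patterns. The ratio of observed to expected CpG in 300 bases around the first listed start (250 before and 50 after) had a median of 0.723 in the 39 regulators with a listed start and 0.585 in the 17274 genes with one. For genes without H3K4me3 in any library the median was 0.689 in 17 regulators and 0.196 in all genes, and 52.9% of those regulators passed a ratio of 0.6, against 9.73% of all genes. Nkx6-1 (1.18), Six2 (1.13), Nkx6-2 (0.972) and Lhx1 (0.961) had the highest ratios and no H3K4me3. For the regulators marked in all 4 libraries the median was 0.713 (n = 9), against 0.794 for all genes, and for WT-only regulators it was 0.723 (n = 9), against 0.660. Six6, printed above, had a ratio of 0.689, close to that of Meis3 (0.688). In the same windows, searched on both strands, the homeodomain core TAATTA was found in 2 of 39 regulators (5.13%) and 4.60% of all genes, and the Meis-type motif TGACAG in 10 of 39 (25.6%) and 18.3%. The T-box core AGGTGTGA was found in 0 of 39 and in 1.18% of all genes.

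**Figure D4:**
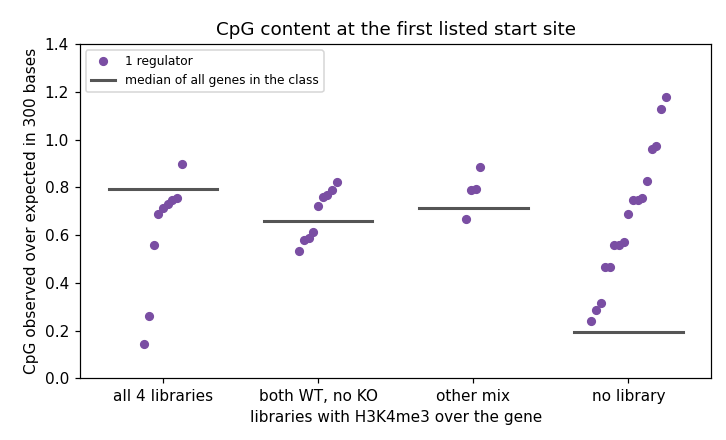
Ratio of observed to expected CpG (y axis) in the 300 bases around the first listed start site, for 39 regulators grouped by the libraries that carry H3K4me3 over the gene (x axis). Points are regulators and grey lines the medians of all genes of the class. In the class with no H3K4me3, 17 regulators spread widely with a median of 0.689, against 0.196 for all genes.

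H3K4me1 peaks lay over 26 and 26 regulators in KO and over 21 and 21 in WT, and the genotypes did not overlap (exact permutation p = 0.333, the smallest possible). Over all protein-coding genes the counts were 9693 and 9030 in KO and 10281 and 9527 in WT, and these overlapped (exact permutation p = 0.667). The regulators carried 65 and 52 H3K4me1 peaks in KO and 50 and 47 in WT (means 58.5 ± 9.19 in KO and 48.5 ± 2.12 in WT, SD over 2 libraries), a log2 KO/WT of 0.27 with an exact permutation p of 0.333. The bases under these peaks, 34.3 and 25.4 kb in KO and 28.5 and 25.5 kb in WT, overlapped (exact permutation p = 1). Among peaks with a −log10 q of at least 10 the regulators' counts no longer differed, at a mean of 1.5 genes in each genotype. The median best H3K4me1 peak of the regulators was at percentile 45.2 and 47.0 in KO and 48.3 and 39.3 in WT, against 64.2 and 63.8 in KO and 64.9 and 66.2 in WT for all genes with a peak.

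In all 4 libraries H3K4me1 lay over 11 regulators (20.4%; background 30.6%). It was KO-only over 4 (7.41%; background 1.63%), WT-only over 2 (3.70%; background 2.77%), in another mix over 22 and absent over 15. By bases, 9 regulators (16.7%; background 7.31%) had both KO values above both WT values, and 4 (7.41%; background 15.3%) had both below. By peak number 8 regulators had both KO values above (background 4.19%) and 3 had both below (background 7.7%). Without KO replicate 1 the KO-only count was 7 and without KO replicate 2 it was 9, and the WT-only count was 4 without WT replicate 1 and 4 without WT replicate 2, since each then rests on 1 library. When the lists were cut to 53120 peaks each, 4 regulators were again KO-only, namely Irx3, Lhx2, Pitx3 and Tbx4 (background 1.89%), and 2 WT-only (background 2.52%).

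Averaged over the 4 libraries, Meis2, Meis1 and Tbx15 carried the most H3K4me1 peaks. Meis2 had 12 and 9 peaks in KO and 9 and 8 in WT, spread over a window of 208 kb. Meis1 had 10 and 10 peaks in KO and 8 and 9 in WT over 141 kb. Tbx15 had 9 and 3 peaks in KO and 9 and 7 in WT over 116 kb. Per 10 kb the mean numbers were 0.456 for Meis2, 0.655 for Meis1 and 0.604 for Tbx15, against 1.36 for the shorter Lhx9, which had 3 and 3 peaks in KO and 5 and 3 in WT. The bases over Meis1 were 6439 and 4929 in KO and 5567 and 5520 in WT, so for Meis1, with no H3K4me3 peak in KO, the H3K4me1 bases overlapped between the genotypes, while the peak numbers did not.

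Tbx5 carried 3 and 4 H3K4me1 peaks in KO (1216 and 1308 bases) and 1 and 2 in WT (291 and 700 bases), so that KO was above WT in both libraries (log2 KO/WT 1.35). Both KO libraries had peaks at chr5:119838330-119838886 (KO replicate 1) and near chr5:119877263-119877600 (KO replicate 1) that neither WT library had. Tbx18 had 4 and 2 peaks in KO (1344 and 1098 bases) and 1 and 0 in WT (396 and 0 bases). The peaks of both KO libraries near chr9:87720650-87721104 (KO replicate 1), within the gene, had no WT match. In 1 kb either side of its listed start alone, the Tbx18 difference had the opposite sign, -20.5 bases. Lhx2 had 2 and 2 peaks in KO (779 and 626 bases) and 1 and 0 in WT (419 and 0 bases). Meis2 also had more bases in KO, 10141 and 6889, than in WT, 6789 and 6183.

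The 4 KO-only genes each had 1 short peak per KO library. Tbx4 had 530 and 481 bases in KO, at chr11:85891423-85891952 in KO replicate 1, with its peaks at percentiles 45.3 and 47.6. Irx3 had 344 and 284 bases just past its 3′ end, away from the H3K4me3 at its start. Msx2 had 249 and 415 bases, and its peak ranked at percentile 0.0384 in KO replicate 1. Pitx3 had 483 and 347 bases in KO at its start site, over the place where WT replicate 1 had its H3K4me3 peak (chr19:46148134-46148749 for H3K4me3 in WT replicate 1, chr19:46147985-46148467 for H3K4me1 in KO replicate 1).

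Dlx2 and Tbx10 were the WT-only genes for H3K4me1, with 352 and 373 bases in WT over Dlx2 and 309 and 416 bases over Tbx10, in both cases in the flank beyond the gene. Lhx9 had 1614 and 1251 bases in KO and 2042 and 1745 in WT. Tbx20, a heart T-box gene without H3K4me3, had 821 and 391 bases in KO and 1031 and 964 bases in WT, and a site within it near chr9:24737020-24737506 (WT replicate 1) was called in both WT libraries alone.

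**Figure D5:**
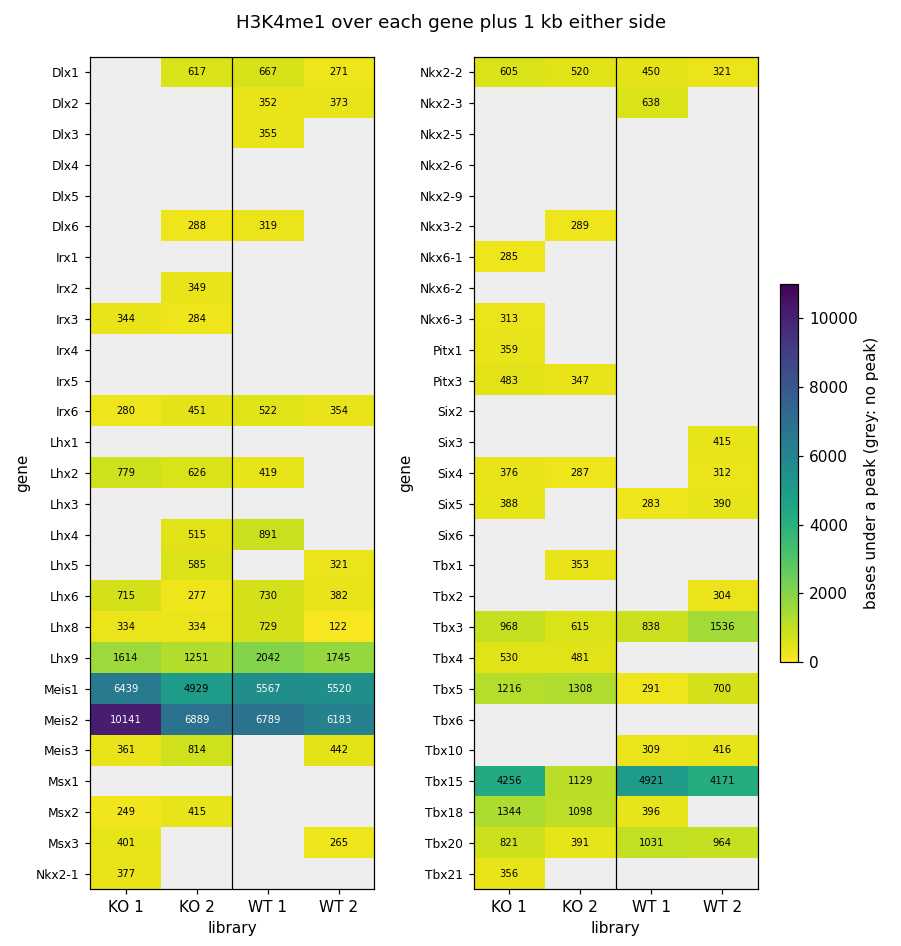
Bases under an H3K4me1 peak over each of the 54 regulators plus 1 kb either side, by library (KO 1 and KO 2 left of the line, WT 1 and WT 2 right of it). Colour and number give the bases, and grey marks no peak. Meis2 and Meis1 have the most bases in every library. Tbx4, Irx3, Msx2 and Pitx3 are filled in both KO columns and neither WT column.

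Of the 32 regulators with H3K4me3 in any library, 28 (87.5%) had H3K4me1 in at least 1 library, against 81.0% of all genes with H3K4me3. Of the 22 without H3K4me3, 11 (50%) had H3K4me1, against 24.3% of all such genes. Lhx8, of basal forebrain neurons, and Tbx20 had H3K4me1 in all 4 libraries and H3K4me3 in none, although every Lhx8 peak lay in the flanks and that of WT replicate 2 was at the opposite end of the gene from the other 3. Of the 15 genes with WT-only H3K4me3, Irx6, Lhx6, Meis1, Nkx2-2 and Tbx5 had H3K4me1 in all 4 libraries (33.3%, near the 39.1% of all genes with WT-only H3K4me3), 1 was KO-only (1.79% of all such genes) and none was WT-only (3.89%). For Nkx2-2 and Lhx6 the KO replicate 2 peak lay apart from those of the other 3 libraries. The only Tbx5 peak of WT replicate 1, at chr5:119844649-119844939, overlapped no Tbx5 peak of another library. Of the 37253 bases of the regulators that carried H3K4me3 in both WT libraries, H3K4me1 covered 2.34% and 4.13% in KO and 5.28% and 3.12% in WT, which overlapped (exact permutation p = 0.667), and without WT replicate 1 the direction turned (log2 KO/WT 0.052). Over all protein-coding genes the shares were 3.31% and 2.62% in KO and 2.91% and 2.44% in WT. Neither mark was called in any library over 11 genes, Dlx5, Irx4, Lhx1, Lhx3, Nkx2-5, Nkx2-6, Nkx2-9, Nkx6-2, Six2, Six6 and Tbx6.

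Related genes outside the 54 were counted in the same way. Of 9 TALE cofactor genes, the partners of Meis and Hox proteins, 5 had H3K4me3 in all 4 libraries. Of 11 mesenchymal homeobox and Twist genes, 2 had it in all 4 libraries, Prrx1 and Prrx2. Of 9 other LIM-homeobox and T-box genes, 1 had it in all 4 libraries and 1 was WT-only. Of 12 anterior and neural homeobox genes, 1 had it in all 4 libraries and 3 were WT-only, Otx1, En1 and Emx2. No gene of these 4 lists was KO-only for H3K4me3, and for H3K4me1 none was KO-only or WT-only by the rule of both libraries. H3K4me1 lay in all 4 libraries over 7 of the 9 TALE genes, 5 of the 11 mesenchymal genes, 2 of the 9 other LIM-homeobox and T-box genes and 2 of the 12 anterior genes.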

How the data were processed

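Cut & Run libraries of MLL4, H3K4me1 and H3K4me3 in KO and WT MEFs were analysed from the deposited peak lists, 1 per library, in mm10 per the submitters' processing notes, which also name Bowtie2, SAMtools 1.5, bedtools, MACS2, deepTools and HOMER 4.10. Per the file headers, the authors called each list with MACS2 2.1.0.20150731 in paired-end mode at a q cutoff of 0.01 with no control. Each deposited list gives each peak's position and length, the authors' pileup signal, its fold enrichment (a ratio) and −log10 values of p and q. A −log10 q grows with depth, so peaks were ranked only within a list. Depth was read from the file headers.

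Sample titles gave the groups and replicate numbers. Gene positions were those of RefSeq (GRCm38.p6, the coordinates of mm10). A gene held a mark in a library when a peak shared at least 1 bp with the gene plus 1 kb either side. No peak was counted for more than 1 of the 54 genes. Starts of noncoding genes lay in some windows, among them those of Dlx4, Irx2, Irx3, Meis1, Meis2, Tbx1, Tbx3, Tbx5 and Tbx15. Peaks were not divided between such noncoding genes and the regulators. Strand and start sites came from the RefSeq promoter table for 39 of the 54 genes. Counts per library were compared by exact permutation (two-sided, 6 assignments of 4 libraries). Shares over all 21631 protein-coding genes served as background. Alternatives were other windows, a −log10 q of at least 10, equal list lengths, a replicate block, leaving out chromosomes 4, 10, 16 and 19, and leaving out each library. Genes named with values were those in both libraries of 1 genotype alone, and the 10 with the most H3K4me3 bases or H3K4me1 peaks. Other members with values were chosen after these were seen. The members and lists were chosen with earlier results of these data known. Python 3.11.15 with numpy 2.4.6, pandas 2.3.3 and matplotlib 3.10.9 was used, and the scoring was tested on simulated peak lists.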

Additional observations from a re-analysis of the deposited data

How the results depend on the processing

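Under the alternatives, the difference in H3K4me3 bases kept its direction, and so did that in H3K4me1 peaks. For H3K4me1 peaks the genotypes overlapped at both gene ends and with 5 kb flanks (exact permutation p = 0.667 each). They also overlapped at a −log10 q of at least 10 (means 2.5 in KO and 1.5 in WT), but not with the other windows or at equal list length. The difference in H3K4me1 genes was 1 at listed start sites (means 7 in KO and 6 in WT), where the genotypes overlapped. The difference in H3K4me3 genes was -0.5 at equal list length (means 11.5 in KO and 12 in WT, exact permutation p = 1), where the genotypes overlapped. The count of WT-only H3K4me3 regulators was 0 at equal list length and 15 to 19 with a library left out (19 without KO replicate 2). For H3K4me1, requiring a −log10 q of at least 10 gave a difference of 0 regulators with a peak, and 0 WT-only and 0 KO-only regulators, and left no value for H3K4me1 inside WT H3K4me3. The WT-only H3K4me1 count was 0 with no flank, and 1 with 5 kb flanks, at listed start sites and off chromosomes 4, 10, 16 and 19; the KO-only count was 2 at listed start sites. With a library left out these counts were 3 to 4 and 6 to 9. The log2 KO/WT ratio of H3K4me1 inside WT H3K4me3 turned to 0.094 with no flank, and ranged from -0.85 to 0.052 with a library left out (0.052 without WT replicate 1). Among single genes, the KO minus WT difference turned for Tbx3 H3K4me3 at equal list length (133.5 bases), Meis3 H3K4me3 at both gene ends (51 bases), Lhx9 H3K4me1 at both gene ends (6.5 bases), Tbx18 H3K4me1 at gene ends and start sites (-20.5 bases) and Nkx2-2 H3K4me1 at start sites (-225.5 bases). The causes were not tested. MLL4 peaks over the regulators numbered 0 under every alternative run, and equal list length was not run for MLL4. The MLL4 lists held only 40 to 69 peaks each and no share over all genes is given here, so these counts say little about the regulators.

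Libraries with the same replicate number did not deviate together (r = 0.019 for H3K4me3 and -0.004 for H3K4me1, across genes, which are not independent). With the replicate block, the H3K4me3 difference was -18 regulators and -2.57 in log2 bases, and the H3K4me1 difference 5 regulators and 0.26 in log2 peaks, each with an exact sign-flip p of 0.5, the smallest that 2 pairs allow. The block gave -0.39 for H3K4me1 inside WT H3K4me3.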

Other observations

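The 50 kb beyond each gene's own scored window on both sides was counted gene by gene, and the counts of the 54 genes were added up. H3K4me1 peaks there numbered 103 and 97 in KO and 110 and 97 in WT, which overlapped (exact permutation p = 1). H3K4me3 peaks there numbered 27 and 31 in KO and 66 and 57 in WT (exact permutation p = 0.333, the smallest possible). These flanks hold other genes as well as intergenic DNA.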
